A study of Mus musculus with 12 samples.

Results

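Subunit genes of the BAF chromatin remodelers that are exchanged, or used as alternatives, when neurons form were followed over the first 4 weeks after birth in nuclei of mouse cortical excitatory neurons. The 10 genes were 3 progenitor-type subunits (Actl6a, Phf10, Ss18), 4 neuron-type subunits (Actl6b, Dpf1, Dpf3, Ss18l1), Dpf2 and the ATPases Smarca2 and Smarca4. They were found by their symbols in the deposited tables, and all 10 were among the 25834 genes listed at every age and among the 15734 that passed the filter on low values.

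BAF complexes, the mammalian SWI/SNF remodelers, use ATP to slide and evict nucleosomes. They are built around an ATPase, Smarca4 (BRG1) or its alternative Smarca2 (BRM), and other positions are likewise filled from small gene families. When neural progenitors leave the cell cycle, the actin-related subunit Actl6a gives way to Actl6b, the zinc finger subunit Phf10 to Dpf1 and Dpf3, and Ss18 to Ss18l1 (CREST, a calcium-responsive coactivator). Neuron-type complexes are known for their part in dendrite growth and activity-dependent transcription. Dpf2, the remaining gene of the family of Phf10, Dpf1 and Dpf3 (the BAF45 genes), is made in most cell types.

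The libraries came from male pups of 3 ages, postnatal day 0 (P0), 14 (P14) and 28 (P28). Each age had 4 libraries, and every pup carried 1 copy of NEX-Cre and 1 copy of CAG-Sun1/sfGFP. NEX-Cre makes Cre recombinase from the Neurod6 locus, and Cre switches on a fluorescent nuclear envelope protein by which the nuclei were pulled down, a method called INTACT. All ages therefore shared the same genotype, no group without the transgenes was used here, and descriptions of the P0 and P14 samples add the word WT, which those of P28 do not. Any cell whose lineage ever made Neurod6 keeps the tag. Polyadenylated RNA from these nuclei was sequenced. It is nuclear RNA and need not follow the RNA of the whole cell or the protein. Levels are given as scaled CPM, that is counts scaled to the depth of each library over the shared genes, and then by a factor estimated over all 12 libraries together. In a bulk sample fewer cells making a gene and less RNA per cell cannot be told apart.

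Depth was 13195973 to 16599217 reads in a P0 library, 25486861 to 33611769 in one of P14 and 21569262 to 31215435 in one of P28. The scarcest member, Dpf3, had 31 to 111 reads in a library. P14 replicate 2 stood apart, with a mean correlation of 0.951 with the other P14 libraries, while every other library was at 0.976 or above within its age. P0 replicate 1 and P28 replicate 4 are merged libraries, and P0 replicate 1 held 15.9 scaled CPM of Xist, which is normally made by female cells, against at most 2.32 in the other libraries. Rbfox3, a marker of mature neurons, had 116 ± 18.1 scaled CPM in P0, 274 ± 20.6 in P14 and 328 ± 15.2 in P28 libraries (SD, n = 4). Markers of other cells were also present. The summed level of 9 progenitor and cell cycle genes ranged from 201 to 271 scaled CPM in the P0 libraries, from 34.9 to 72.8 in those of P14 and from 26.1 to 32.8 in those of P28. Over 5 vessel genes the sums were 995 to 1752, 177 to 280 and 132 to 161, and over 6 oligodendrocyte genes 78.7 to 90.6, 952 to 2355 and 1737 to 2820. For 6 inhibitory neuron genes they were 353 to 380, 158 to 291 and 212 to 287, and for 6 astrocyte genes 293 to 462, 270 to 733 and 256 to 318. Their part in the changes below was not tested.

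From P0 to P14, 6 of the 10 members fell and 0 rose (limma, Benjamini-Hochberg adjusted p at most 0.05), on a background of 68.9% of all tested genes called, 34.4% higher and 34.5% lower. The count of 0 was the same at an unadjusted p of 0.05, in edgeR and in DESeq2. The same 6 members had no overlap between their P0 and P14 libraries, with P0 above; of all genes, 59.3% had no overlap and 30.2% had none with P0 above. The median log2 change of the members was −0.72, beside 0.01 over all genes tested. From P14 to P28 no member was called in limma, where 18.3% of all genes were (9.22% higher, 9.09% lower). At an unadjusted p of 0.05 there were 1 higher and 1 lower member, DESeq2 called 1 higher and edgeR 0. Over the whole interval from P0 to P28, which shares its libraries with both steps, 7 members were lower and 1 was higher, on a background of 35.6% and 35.7%. The 7 became 5 to 7 in the alternatives tried, as the calls of Actl6a and Ss18 did not hold in all of them and Dpf3 was left out by a filter at a mean of 5 CPM.

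**Figure D1:**
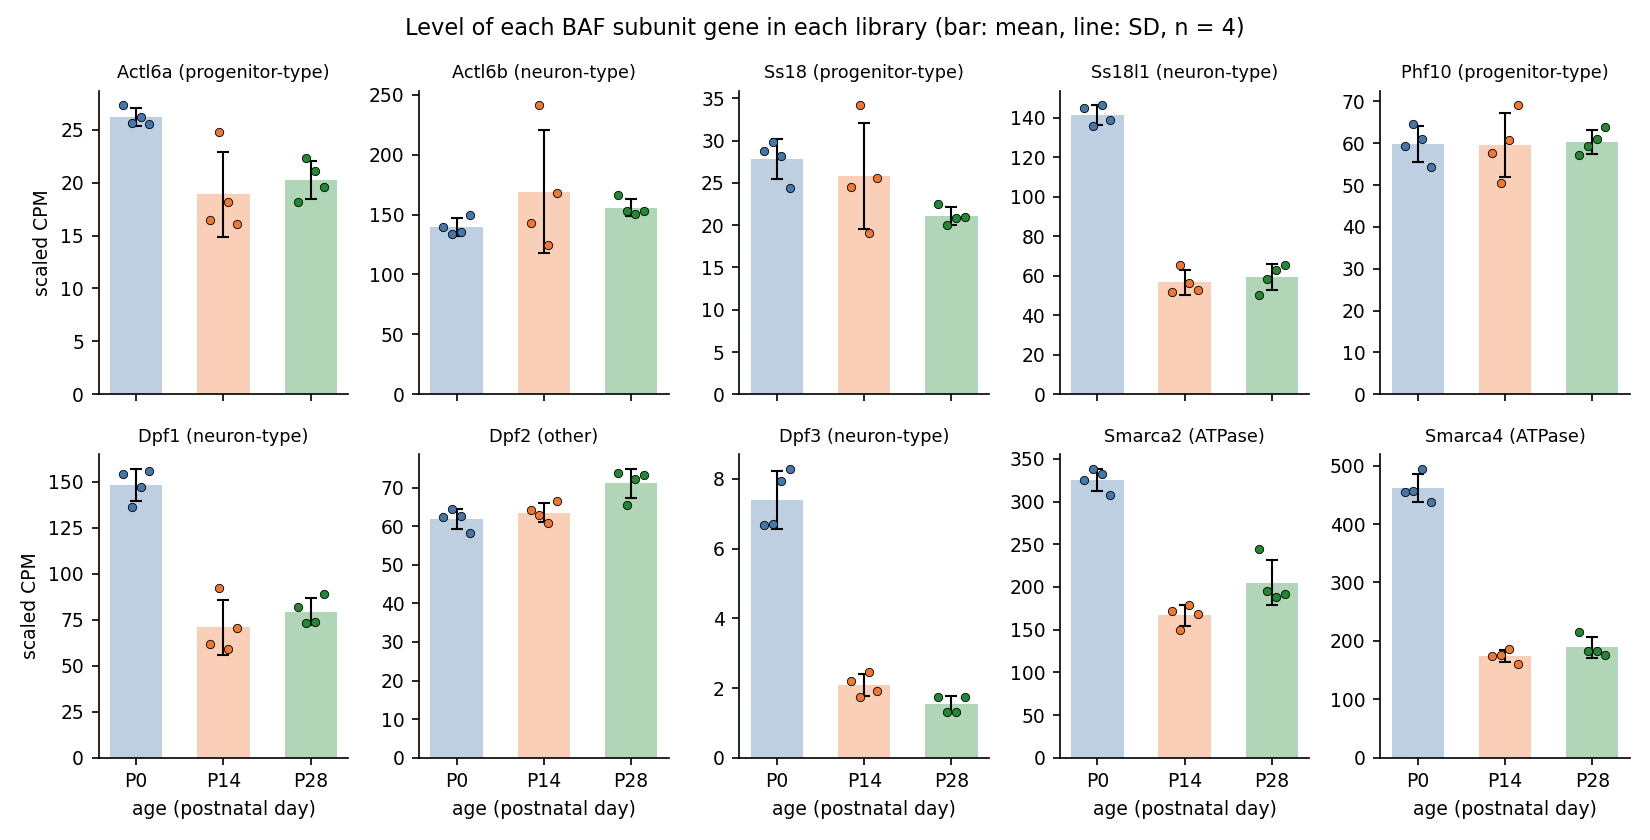
Scaled CPM (vertical axes, each from 0) of the 10 members in the 12 libraries by age; points are libraries, bars the mean and lines the SD over 4 libraries. Ss18l1, Dpf1, Dpf3, Smarca2 and Smarca4 have all their P0 libraries far above those of P14 and P28, while Actl6b, Phf10 and Dpf2 stay within overlapping ranges at P0 and P14.

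Dpf1 and Dpf3, which both fell, are shown with the stretch of DNA before their start sites. Phf10, which is of the same gene family and had no call, and Actl6a are shown beside them. Capitals mark CCAAT (or ATTGG on the other strand) and GGGCGG (or CCGCCC), the letters of the CCAAT box and the GC box. The sequences are from RefSeq (GRCm38.p6, the assembly that mm10 is based on), read 5′ to 3′ on the gene's own strand, and end at the listed start site or, for Dpf1, where the gene's earliest annotated transcript begins.
Dpf1, chr7:29303755-29303951 (+): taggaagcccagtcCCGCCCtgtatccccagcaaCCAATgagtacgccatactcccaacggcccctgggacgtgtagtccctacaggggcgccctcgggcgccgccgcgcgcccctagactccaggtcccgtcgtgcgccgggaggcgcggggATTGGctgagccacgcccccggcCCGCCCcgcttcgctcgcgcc
Dpf3, chr12:83487737-83487986 (-): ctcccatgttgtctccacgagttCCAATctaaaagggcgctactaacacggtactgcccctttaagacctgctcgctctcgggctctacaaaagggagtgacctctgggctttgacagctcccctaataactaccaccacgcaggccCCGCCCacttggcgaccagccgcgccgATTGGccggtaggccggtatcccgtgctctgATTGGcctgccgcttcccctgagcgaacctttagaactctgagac
Phf10, chr17:14961261-14961510 (-): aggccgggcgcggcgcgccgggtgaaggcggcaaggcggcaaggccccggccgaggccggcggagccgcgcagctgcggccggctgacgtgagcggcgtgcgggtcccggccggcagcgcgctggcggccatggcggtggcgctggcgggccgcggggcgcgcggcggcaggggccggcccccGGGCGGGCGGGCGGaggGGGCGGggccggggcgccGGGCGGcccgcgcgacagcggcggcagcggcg
Actl6a, chr3:32708296-32708545 (+): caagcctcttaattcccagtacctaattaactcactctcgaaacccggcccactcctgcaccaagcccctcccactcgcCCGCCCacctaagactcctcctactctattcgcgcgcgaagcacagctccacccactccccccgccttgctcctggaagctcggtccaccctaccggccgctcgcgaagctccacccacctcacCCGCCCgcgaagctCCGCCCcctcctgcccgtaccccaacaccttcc
Of the 10 members, 9 had a window of 250 bases in the RefSeq table. CCAAT or ATTGG was found in 4 of the 9 (Actl6b, Dpf1, Dpf2 and Dpf3), against 33.8% of 32851 such windows of all listed start sites. GGGCGG or CCGCCC was found in 7 of the 9, all but Actl6b and Dpf2, against 32.7%. A match of one motif may share bases with a match of the other. Dpf3 held 3 CCAAT matches and 1 GC box match, Dpf1 2 and 4 (some in the stretch not printed), and Phf10 0 and 5. Of 3 further motifs searched on both strands, TATAAA and CAGATG were in 0 of the 9 windows, against 12.4% and 14.4% of all, and GGACAG was in 1 (Dpf2), against 18.7%.

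Actl6a and Actl6b are the 2 alternative actin-related subunits. Actl6a, the progenitor-type gene, had 27.3, 25.6, 26.2 and 25.6 scaled CPM in the 4 libraries of P0, 16.5, 24.8, 18.2 and 16.1 in those of P14 and 18.2, 22.3, 21.1 and 19.6 in those of P28. Every P0 library was above every later one, and the highest later value was that of P14 replicate 2. The gene fell from P0 to P14 by 0.48 on the log2 scale (SE 0.13, adjusted p = 0.00527), to 0.716 of its level. On the deposited values, which are not scaled between ages and shift the median of all genes by 0.47, the difference was −0.01. At P28 Actl6a was again lower than at P0 (−0.36 ± 0.13, adjusted p = 0.0239), a call that was lost without P0 replicate 1 (adjusted p = 0.0529), P28 replicate 1 (0.0692) or P28 replicate 4 (0.0556). It was also lost with library-total scaling (0.055), on the deposited values (0.556) and without both merged libraries (0.102). Its mean at P28 was 20.3 ± 1.79 scaled CPM (SD, n = 4).

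Actl6b, the neuron-type gene, had no call in any comparison. It had 139.7, 133.7, 135.5 and 149.8 scaled CPM in P0 replicates 1 to 4, then 142.6, 241.5, 124.5 and 167.9 at P14 and 166.4, 152.7, 150.7 and 153.0 at P28. P14 replicate 2 was far above the rest and P14 replicate 3 was the lowest of all 12, so that P0 and P14 overlapped, whereas each P28 library was above each P0 library. The difference from P0 to P14 was 0.23 ± 0.16 (95% confidence interval −0.11 to 0.57, adjusted p = 0.202), and it passed without P14 replicate 3 (0.36, adjusted p = 0.0397). From P0 to P28 it was 0.16 with an interval of −0.18 to 0.49 (adjusted p = 0.383). Non-overlapping ages alone were common, at 71.2% of all genes in that comparison.

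Ss18 and Ss18l1 take the same position in the complex. Ss18l1, the neuron-type gene, had 144.7, 135.6, 146.4 and 138.6 scaled CPM in P0 replicates 1 to 4, then 51.8, 65.5, 56.4 and 53.0 at P14 and 50.4, 58.2, 62.8 and 65.3 at P28. All P0 libraries were more than 2 times above all later ones, and the later ages overlapped. The gene fell by 1.32 on the log2 scale from P0 to P14 (SE 0.10, adjusted p = 7.53e-08), to 0.402 of its level, and from P14 to P28 the difference was 0.06 (95% interval −0.15 to 0.28).

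The progenitor-type partner Ss18 moved less. It had 28.7, 29.9, 28.2 and 24.4 scaled CPM in the 4 libraries of P0, 24.5, 34.2, 19.1 and 25.5 in those of P14 and 22.5, 19.99, 20.9 and 20.9 in those of P28. P14 spread over both other ages, with replicate 2 the highest of all libraries and replicate 3 the lowest. The P0 to P14 difference of −0.13 ± 0.15 did not pass (adjusted p = 0.443), but did without P14 replicate 2 (−0.27, adjusted p = 0.0418). Between P0 and P28, whose libraries did not overlap, Ss18 was lower by −0.39 ± 0.15 (adjusted p = 0.0287). That call was lost without P0 replicate 1 (adjusted p = 0.059), 2 (0.0724) or 3 (0.0568) and without P28 replicate 2 (0.0679), 3 (0.0571) or 4 (0.0561). Library-total scaling (0.0607), the deposited values (0.497) and leaving out both merged libraries (0.0994) ended it too.

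The BAF45 family has 4 genes, and these went different ways. Dpf1, a neuron-type gene, had 154.0, 136.2, 146.8 and 155.7 scaled CPM in P0 replicates 1 to 4, then 61.7, 92.1, 59.3 and 70.7 at P14 and 81.9, 73.3, 73.6 and 88.9 at P28. The P0 libraries were all above the others, and P14 replicate 2 was the highest of the later libraries. Dpf1 fell by 1.08 on the log2 scale from P0 to P14 (SE 0.13, adjusted p = 5.33e-06). The P14 to P28 difference was 0.18 (adjusted p = 0.345), and 0.31 without P14 replicate 2 (adjusted p = 0.0206).

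Dpf3, the other neuron-type gene of the family, was the scarcest member and had 6.68, 6.71, 7.94 and 8.3 scaled CPM in the 4 libraries of P0, 2.21, 1.75, 2.46 and 1.91 in those of P14 and 1.75, 1.33, 1.31 and 1.76 in those of P28. Its P0 libraries stood clear of all later ones. It fell by 1.62 from P0 to P14 (SE 0.16, adjusted p = 7.44e-07), to 0.326 of its level, the largest fold of any member, with a further −0.34 from P14 to P28 that did not pass (adjusted p = 0.143).

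Phf10, the progenitor-type gene, had 59.3, 64.7, 60.9 and 54.4 scaled CPM in P0 replicates 1 to 4, then 57.6, 50.6, 60.8 and 69.2 at P14 and 57.2, 59.4, 61.1 and 64.0 at P28. The 3 ages overlapped. No difference passed, and the interval from P0 to P14 was −0.23 to 0.20 on the log2 scale. The last 946 bases of Phf10 overlap the gene 1600012H06Rik, which had a mean of 37.3 scaled CPM, and the sources used here do not say which strand was counted.

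Dpf2 is the member of the family that was placed in neither the progenitor-type nor the neuron-type group here. It had 62.4, 64.4, 62.6 and 58.2 scaled CPM in the 4 libraries of P0, 64.1, 62.8, 60.7 and 66.4 in those of P14 and 73.6, 65.5, 72.2 and 73.2 in those of P28. P0 and P14 overlapped, and P28 lay above P0. At P28 it was 0.20 ± 0.08 higher than at P0 (adjusted p = 0.0301), the single member with a rise. The call was lost without P0 replicate 4 (adjusted p = 0.0741) or without P28 replicate 1 (0.0734), 3 (0.0697) or 4 (0.0754). The same held without both merged libraries (0.101), without a filter on low values (0.0594) and with the replicate number as a block (0.0624).

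Per kilobase of exon, which allows genes to be compared within a library, Dpf1 made up 64.2% ± 2.43 of the summed BAF45 RNA at P0, 47.2% ± 6.13 at P14 and 49.0% ± 1.74 at P28 (SD, n = 4). The share of Phf10 went from 18.3% ± 1.68 to 28.3% ± 4.41 and 26.3% ± 1.42, and that of Dpf2 from 14.6% ± 0.887 to 23.2% ± 1.78 and 23.9% ± 1.02. Dpf3 held 2.87% ± 0.307, 1.26% ± 0.299 and 0.844% ± 0.0986. The summed level of the 4 genes was 65.3 ± 1.59 scaled CPM per kb in P0, 42.3 ± 3.70 in P14 and 45.9 ± 2.86 in P28 libraries. Dpf1 was the most abundant of the family in each of the 12 libraries.

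**Figure D2:**
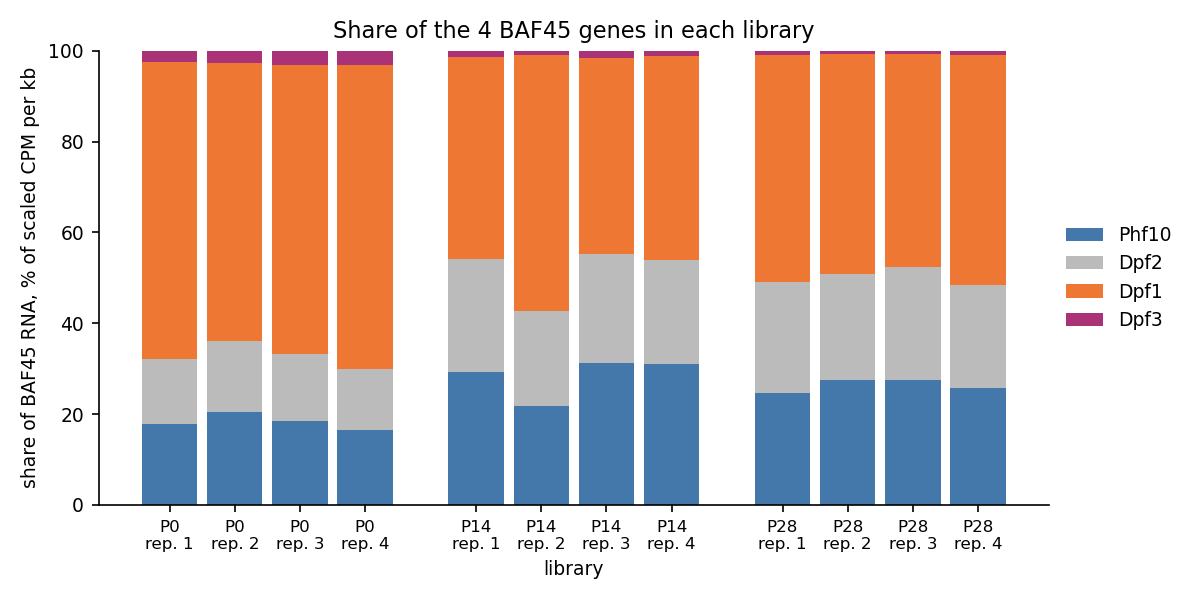
Share of each BAF45 gene in their summed scaled CPM per kb of exon (vertical axis, %), 1 bar per library. Dpf1 takes 61.2% to 66.8% of each P0 bar and 43.2% to 56.4% of each P14 bar, the highest of these in P14 replicate 2.

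Smarca4 and Smarca2, the alternative ATPases, were the 2 members with the highest scaled CPM at P0. Smarca4 had 455, 456, 495 and 438 scaled CPM in P0 replicates 1 to 4, then 175, 177, 185 and 161 at P14 and 214, 184, 182 and 175 at P28. No P0 library came near the later ones, and P14 and P28 overlapped. It fell by 1.40 from P0 to P14 (SE 0.09, adjusted p = 9.89e-09), to 0.379 of its level.

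Smarca2 had 325, 338, 332 and 308 scaled CPM in the 4 libraries of P0, 172, 150, 179 and 168 in those of P14 and 244, 195, 189 and 192 in those of P28. Each P28 library was above each P14 library and below each P0 library, and P28 replicate 1 was well above its group. Smarca2 fell by 0.96 from P0 to P14 (SE 0.10, adjusted p = 1.11e-06). At P28 it was 0.29 ± 0.10 higher than at P14, the only member whose libraries did not overlap in that step (of all genes 27.4% did not, 14.2% with P28 higher and 13.2% with P28 lower), and narrowly missed the threshold (adjusted p = 0.0532). DESeq2 called it (adjusted p = 0.0189), and without P28 replicate 1 the difference was 0.20 (adjusted p = 0.149). Within its bounds lie 3 annotated noncoding genes, of which 4931403E22Rik, at 0.584 scaled CPM, was the one listed in the tables.

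**Figure D3:**
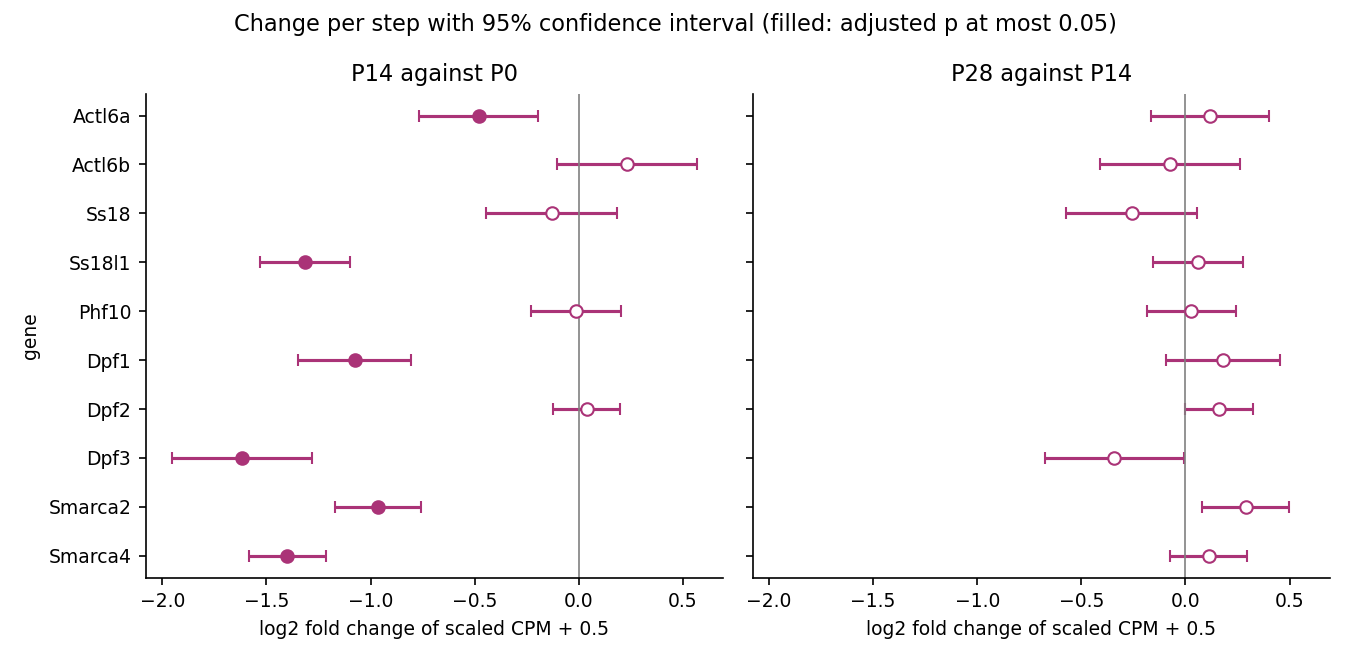
Log2 fold change of scaled CPM + 0.5 (horizontal axes) for each member from P0 to P14 and from P14 to P28, with 95% confidence intervals; filled points passed an adjusted p of 0.05. In the first step 6 of 10 points are filled, all below 0, and in the second step 0 of 10.

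Ratios within a library set the alternative subunits against each other without regard to scaling between ages. The log2 ratio of Actl6b to Actl6a was 2.33, 2.36, 2.35 and 2.53 in the P0 libraries, 3.07, 3.26, 2.74 and 3.34 at P14 and 3.16, 2.75, 2.81 and 2.94 at P28. It was higher at P14 than at P0 by 0.71 ± 0.14 and at P28 than at P0 by 0.52 ± 0.10 (SE), with no overlap in either comparison. The ratio of Ss18l1 to Ss18 went the other way: 2.31, 2.16, 2.36 and 2.48 at P0, 1.07, 0.93, 1.54 and 1.04 at P14 and 1.15, 1.52, 1.57 and 1.62 at P28. Its difference was −1.19 ± 0.15 at P14 and −0.87 ± 0.13 at P28, both relative to P0.

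Within the BAF45 family both neuron-type genes lost ground to Phf10. The log2 ratio of Dpf1 to Phf10 was 1.37, 1.07, 1.26 and 1.51 at P0, 0.10, 0.86, −0.03 and 0.03 at P14 and 0.51, 0.30, 0.27 and 0.47 at P28. P14 replicate 2 lay far above its group and still below the P0 libraries. The ratio was lower than at P0 by −1.06 ± 0.23 at P14 and by −0.91 ± 0.11 at P28. For Dpf3 to Phf10 the means were −2.93 ± 0.23, −4.54 ± 0.22 and −4.91 ± 0.19 (SD, n = 4), differences of −1.60 ± 0.16 and −1.98 ± 0.15 from P0.

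The ratio of Smarca2 to Smarca4 was −0.48, −0.43, −0.57 and −0.51 at P0, −0.03, −0.24, −0.05 and 0.06 at P14 and 0.19, 0.09, 0.05 and 0.13 at P28. It was higher by 0.44 ± 0.07 at P14 and by 0.61 ± 0.04 at P28 than at P0. Per kb of exon Smarca2 made up 41.6% ± 0.988 of the pair at P0, 49.1% ± 2.20 at P14 and 52.2% ± 1.04 at P28.

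Each of the 5 ratios had the smallest p that 4 against 4 libraries allow, p = 0.0286 in an exact two-sided permutation test over 70 arrangements, in both comparisons with P0 (adjusted over 15 tests, 0.0429). This p is reached whenever the libraries of 2 ages do not overlap. Of single genes, 59.3% had no overlap between P0 and P14 and 71.2% none between P0 and P28. The share over other pairs of genes was not computed, so the 5 ratios are not shown to stand out. None of the ratios passed from P14 to P28. The nearest was Smarca2 to Smarca4, at 0.18 ± 0.07 (exact permutation p = 0.0571, adjusted 0.0779). Leaving out any single P0 library left none of the 5 past the threshold, with permutation-based adjusted p-values of 0.0536 to 0.0779 from P0 to P14 and of 0.0536 from P0 to P28, while no difference changed its sign. The remaining libraries still did not overlap in any of the 5 ratios. Leaving out any single P14 or P28 library kept the calls against P0. They were lost whichever P0 library was left out, so these fits do not single out a particular P0 library. From P14 to P28 the ratio of Dpf1 to Phf10 passed without P14 replicate 2 (0.36, exact permutation test, adjusted p = 0.039) and that of Smarca2 to Smarca4 without P14 replicate 4 (0.22, adjusted p = 0.039).

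**Figure D4:**
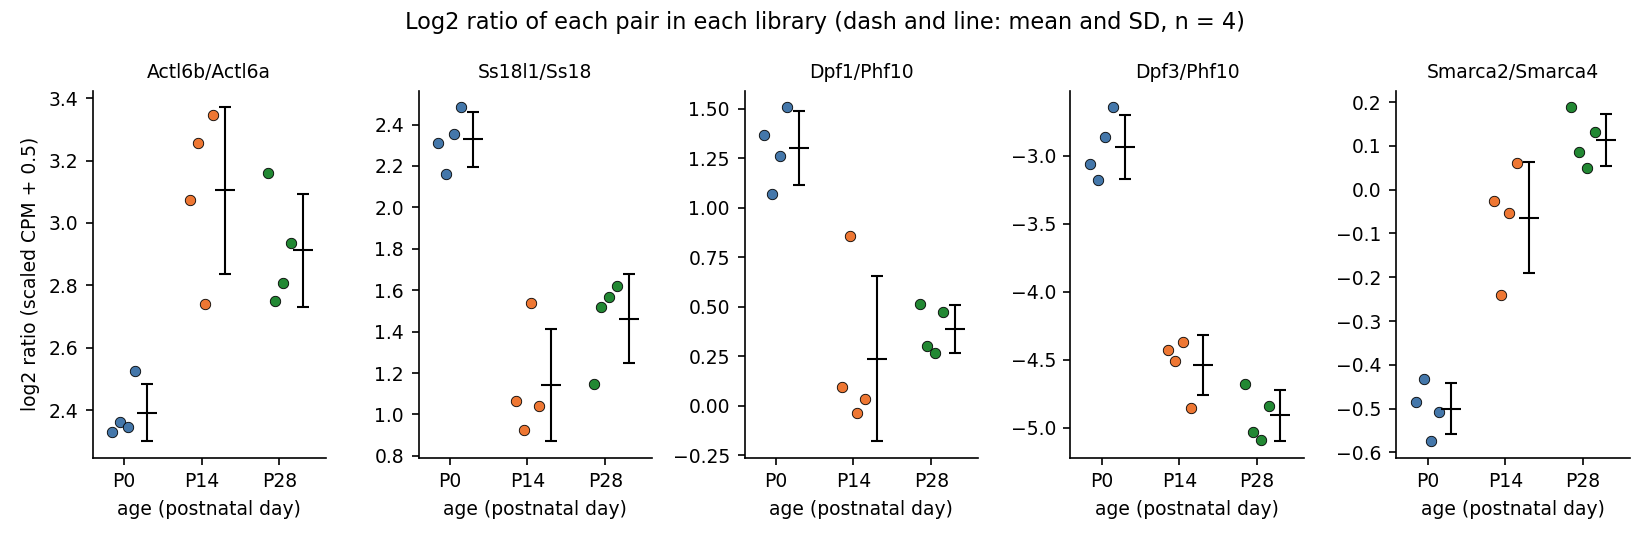
Log2 ratio of each pair of genes (vertical axes, log2 of scaled CPM + 0.5, not starting at 0) in the 12 libraries by age, with mean and SD over 4 libraries. Actl6b/Actl6a and Smarca2/Smarca4 are higher in all later libraries than in all P0 libraries, and the other 3 ratios are lower.

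Averaged over the groups, the mean log2 level of the 4 neuron-type genes exceeded that of the 3 progenitor-type genes by 0.96 ± 0.15 at P0, 0.22 ± 0.04 at P14 and 0.22 ± 0.10 at P28 (SD, n = 4). These levels were not divided by exon length, so the size of the excess at an age depends in part on the lengths of the genes. Of the neuron-type genes 3 of 4 fell from P0 to P14 (median change −1.20), and of the progenitor-type genes 1 of 3 did (median −0.13), where 34.5% of all genes were called lower. The share of progenitor-type genes that fell was thus near that of all genes, and the difference between the groups was not tested. Actl6b was the neuron-type gene that did not fall.

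In scaled CPM per kb of exon, Actl6b was the most abundant member at each age, at 71.8 ± 3.70, 87.0 ± 26.4 and 80.1 ± 3.70 (SD, n = 4). At P0 it overlapped with Smarca4 (71.2 ± 3.72), followed by Smarca2 (50.8 ± 2.01), Dpf1 (42.0 ± 2.51) and Ss18l1 (32.5 ± 1.17). At the other end stood Dpf2 and Actl6a, which overlapped at 9.52 and 9.48, then Ss18 at 6.15 and Dpf3 at 1.88. At P14 Smarca4 and Smarca2 were at 27.0 ± 1.54 and 26.0 ± 1.94 and overlapped, as did Ss18l1 (13.0 ± 1.42) and Phf10 (11.9 ± 1.53). At P28 Smarca2 (32.0 ± 4.11) and Smarca4 (29.2 ± 2.68) again overlapped, in reverse order. Actl6b held 88.3% ± 0.640, 92.5% ± 1.33 and 91.6% ± 0.958 of the per-kb RNA of its pair, and Ss18l1 84.1% ± 1.25, 69.8% ± 3.90 and 74.4% ± 2.96 of its own.

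The genes whose levels followed those of Actl6a most closely over the 12 libraries, among 12053 genes at a mean of 5 or more scaled CPM, were Usp3 (Pearson r = 0.973), Cpsf3 (0.954), Mbtps1 (0.953), Epc1 (0.952) and Mrps5 (0.945). For Actl6b they were Ercc1 (0.944), Cpsf1 (0.940), Asl (0.923), Psmc4 (0.923) and Tmem145 (0.922). All 10 had P14 replicate 2 above the other P14 libraries, as Actl6a and Actl6b did, so these values rest in part on that library, and the libraries of an age share their age.

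Most genes of the rest of the complex fell in the first step. Of 21 other BAF subunit genes, 16 fell and 2 rose from P0 to P14, with a median of −1.03, beside 34.5% lower and 34.4% higher and a median of 0.01 over all genes. Bcl7c went from 93.2 ± 6.42 to 12.9 ± 1.12 scaled CPM (−2.81 ± 0.10, adjusted p = 6.74e-11). Bicra, a subunit of the noncanonical GBAF complex, went from 53.3 ± 5.71 to 14.8 ± 2.90 (−1.83 ± 0.15, adjusted p = 1.39e-07). The zinc finger factors Bcl11b and Bcl11a, which shape cortical projection neurons, fell by 1.78 and 1.71 on the log2 scale. The 2 that rose were Bcl7b (0.59 ± 0.12, adjusted p = 0.00049) and Bicral, the paralogue of Bicra (0.38 ± 0.10, adjusted p = 0.00327).

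From P14 to P28, 3 of the 21 rose and 0 fell in limma, where 9.22% of all genes were higher and 9.09% lower; at an unadjusted p of 0.05 there were 3 lower, edgeR called 1 and DESeq2 2. The DNA-binding subunit Arid1a went from 113 ± 10.6 to 162 ± 10.8 scaled CPM (0.52 ± 0.10, adjusted p = 0.00299), and all its P28 libraries were above all those of P14. Its paralogue Arid1b (0.54 ± 0.15, adjusted p = 0.0291) and the core subunit Smarcc2 (0.27 ± 0.08, adjusted p = 0.0357) rose too; both calls were lost without P14 replicate 4 (0.0618 and 0.106) and without any 1 of the P28 libraries (0.0552 to 0.0747 and 0.0683 to 0.1001). On the deposited values neither passed (0.119 and 0.567). The call of Smarcc2 was lost in further settings: library-total scaling (0.0515), quantile normalization (0.0889), no filter on low values (0.0521), limma without trend and robust (0.0504), a fit of only the 8 libraries compared (0.0690), the replicate block (0.0776) and without both merged libraries (0.113). The number that rose was 5 without P14 replicate 2 and 1 without P14 replicate 4.

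**Figure D5:**
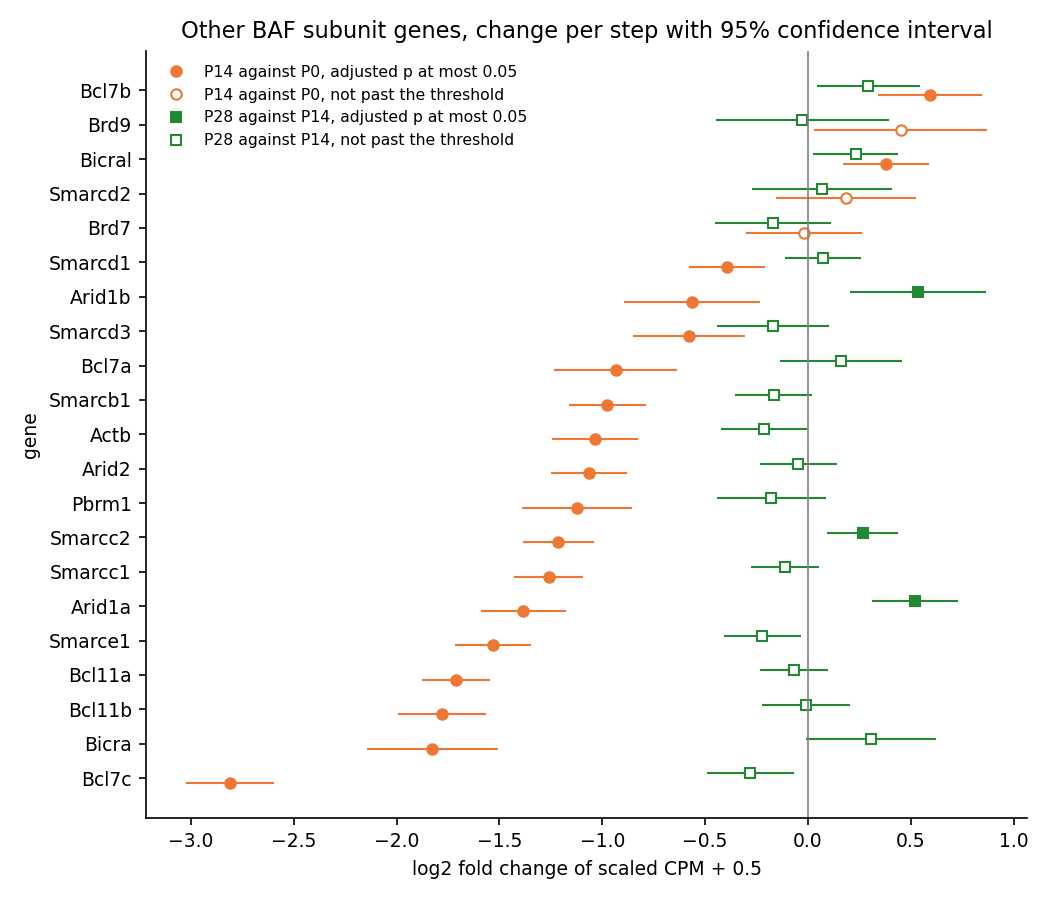
Log2 fold change of scaled CPM + 0.5 (horizontal axis) of 21 other BAF subunit genes from P0 to P14 (circles) and from P14 to P28 (squares), with 95% confidence intervals; filled symbols passed an adjusted p of 0.05. In the first step 16 filled circles lie below 0 and 2 above, and in the second 3 filled squares lie above 0.

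Of 12 regulators linked to the subunit exchange, 4 rose and 7 fell from P0 to P14, where 34.4% of all genes were higher and 34.5% lower, so that the share that rose was near that of all genes. Rest, a repressor of neuronal genes that also acts on the genes of the microRNAs miR-9 and miR-124, was at 18.9, 24.2, 27.5 and 21.6 scaled CPM at P0 and at 2.46 to 3.80 at P14 (−2.63 ± 0.19, adjusted p = 5.34e-08). Mir124a-1hg, a host transcript of miR-124, which represses Actl6a through its mRNA, was at 31.6 to 105 scaled CPM at P0 and 349 to 576 at P14 (3.00 ± 0.28, adjusted p = 5.19e-07). The level of a host transcript is not that of the mature microRNA, which was not measured. Ctdspl, a small phosphatase that works with Rest, rose by 1.81 ± 0.20, and the corepressor Rcor2 fell by 1.42 on the log2 scale. From P14 to P28, 1 regulator rose, Ptbp1 (0.51 ± 0.12, adjusted p = 0.0108), and 2 fell, Ptbp2 (−0.47 ± 0.14, adjusted p = 0.0314) and Mir124-2hg (−0.41 ± 0.13, adjusted p = 0.0405). In that step 9.22% of all genes were higher and 9.09% lower, beside 8.33% and 16.7% of the regulators. The share that rose was thus near that of all genes. The call of Ptbp2 was lost without P14 replicate 4 or P28 replicate 1, 2 or 4 (adjusted p = 0.0522 to 0.0919), and that of Mir124-2hg without P0 replicate 1 or 2, P14 replicate 3 or P28 replicate 1, 3 or 4 (0.05002 to 0.114). Both were lost with only the 8 libraries compared (0.0717 and 0.0501) and without both merged libraries (0.0640 and 0.118), and Mir124-2hg without a filter (0.0573) and with limma without trend and robust (0.0567). Ptbp1 did not pass on the deposited values (0.0643).

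The fall of the BAF ATPases was set beside 17 ATPase genes of other remodelers, of which 11 fell and 2 rose from P0 to P14, with a median of −0.42, beside 34.5% lower and 34.4% higher over all genes. Smarca4 at −1.40 fell further than all but Chd7 (−2.005 ± 0.16), a CHD remodeler, and Smarca2 at −0.96 lay between Atrx (−1.03 ± 0.14) and Chd3 (−0.85 ± 0.11); these differences between genes were not tested. Srcap (−1.10 ± 0.23) had 1.14 to 6.60 scaled CPM in a library. From P14 to P28, 3 of the 17 rose and 0 fell (9.22% and 9.09% of all genes), and 0 were lower at an unadjusted p of 0.05, in edgeR or in DESeq2.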

How the data were processed

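RNA-seq of nuclear polyadenylated RNA covered 3 ages with 4 libraries each. Per the labels' protocols, libraries were made with a TruSeq stranded mRNA kit. The deposited values, 1 table per age, are normalized read counts, of the unit signal: the authors divided each library's reads by a single factor, and per the submitters' processing notes the tool was DESeq2 and the build mm10, without versions. The sources used here do not give the aligner, the annotation or the counted strand. Every value was a whole multiple of its library's smallest step within 0.05 reads, so whole reads were recovered. Of the columns, 0 had no matching sample.

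Columns were divided by their totals over the 25834 genes in all 3 tables and scaled by median-of-ratios factors over the 12 libraries (0.936 to 1.04). Genes at 1 scaled CPM or more in at least 4 libraries were kept. Changes in log2(scaled CPM + 0.5), a scale that understates changes of low genes, were tested two-sided with limma 3.58.1 (R 4.3.3, trend and robust, age as a factor, no block), with Benjamini-Hochberg adjustment over 15734 genes and a threshold of 0.05. Values after ± are SD for levels and SE for log2 differences. Ratios were compared by exact two-sided permutation tests. Lengths were exon unions of GENCODE M1 models of an earlier build, used as lengths only. Alternatives used edgeR 4.0.16 and DESeq2 1.42.0 on the recovered reads, other pseudocounts, filters and scalings, and subsets of libraries. The code was tested on simulated data. Beyond the members, the genes named were the 4 of each list with the largest called change and the 5 most correlated with Actl6a and with Actl6b; other names in lists were chosen after their values were seen. Members and lists were chosen with earlier results of these data known. Labels call the libraries biological replicates and name no animals, so p-values measure the spread between these libraries.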

Additional observations from a re-analysis of the deposited data

Results flagged for a closer look

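Over 45 groups of 4 libraries (10 members and 5 ratios at 3 ages), 4 had a library far from the other 3, a gap that chance alone gives in about 1 in 20 groups. Actl6b was at 166.4 scaled CPM in P28 replicate 1, above the other P28 libraries at 150.7 to 153.0. Smarca2 was at 244.4 in the same library, above the others at 189 to 195. The log2 ratio of Actl6b to Actl6a was 2.53 in P0 replicate 4, above the other P0 libraries at 2.33 to 2.36. The log2 ratio of Dpf1 to Phf10 was 0.86 in P14 replicate 2, above the others at −0.03 to 0.10.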

How the results depend on the processing

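Depth limits Dpf3 most, with 31 to 111 reads per library. In 26 alternatives (25 for Dpf3) the falls of Dpf1, Dpf3, Ss18l1, Smarca2 and Smarca4 from P0 to P14 and from P0 to P28 kept their direction and their call, and the 6 lower members from P0 to P14 ranged from 5 to 7. The deposited values without rescaling shift the median of all genes by 0.47 from P0 to P14, by −0.20 from P14 to P28 and by 0.27 from P0 to P28. On them Phf10 (0.47) and Ss18 (0.35) were higher at P14 than at P0, and 4 members were called higher from P0 to P14, 2 lower from P14 to P28 and 3 higher from P0 to P28. On the same values the other BAF subunits gave 5 higher (P0 to P14), 1 higher and 10 lower (P14 to P28) and 4 higher (P0 to P28), the regulators 0 higher and 4 lower (P14 to P28), and the other ATPases 5 higher and 5 lower (P0 to P14), 0 higher and 1 lower (P14 to P28) and 7 higher and 4 lower (P0 to P28). Over all genes they gave 8495 higher and 3190 lower from P0 to P14, and 672 higher and 3858 lower from P14 to P28. The split over all genes on the main scale was 5412 higher and 5436 lower, and 1450 higher and 1431 lower.

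Called from P14 to P28, 1 member was higher with a filter at a mean of 5 CPM or with DESeq2. The higher member from P0 to P28 became 0 without a filter on low values and without both merged libraries. Other BAF subunits lower from P14 to P28 were 1 with library-total scaling, with quantile normalization or with edgeR and 2 with DESeq2, and those higher from P0 to P28 were 4 when only the 8 libraries compared were fitted. Regulators lower from P14 to P28 were 1 without a filter or with limma without trend and robust, and 0 with only the 8 libraries compared or without both merged libraries. Other ATPases higher from P0 to P14 were 0 without a filter, with upper-quartile scaling, with limma without trend and robust, with only the 8 libraries compared and without both merged libraries. Without both merged libraries 876 genes were higher and 899 lower from P14 to P28, and 0 ratios passed in either comparison with P0. From P0 to P28 the libraries left allow too few arrangements for any ratio to pass, so that 0 is void. The ratios from P0 to P14 are adjusted together with those tests, so their 0 decides nothing either. The causes of these shifts were not tested.

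Leaving out 1 library at a time, members higher ranged from 0 to 1 in each comparison. Other BAF subunits higher ranged from 1 to 5 from P14 to P28 and from 2 to 4 from P0 to P28, with 0 to 2 lower from P14 to P28. Regulators from P14 to P28 ranged from 1 to 2 higher and 0 to 3 lower, and other ATPases higher from P0 to P14 from 0 to 2. Over all genes the ranges from P14 to P28 were 897 to 1970 higher and 902 to 2097 lower. Ratios past the threshold ranged from 0 to 5 in both comparisons with P0 and from 0 to 1 from P14 to P28. In the comparisons with P0 the 0 came from leaving out any single P0 library.

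Replicate numbers do not pair libraries: the deviations of same-numbered libraries correlated at −0.51 to 0.36. With the replicate number as a replicate block, the member count higher from P0 to P28 was 0 and that of other ATPases higher from P0 to P14 was 1. For the ratios the block allows no p under 0.125, so 0 ratios passed from P0 to P14 and 0 from P0 to P28, and this test is void.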
